A study of Gossypium barbadense and Gossypium hirsutum with 8 samples.

Results

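The step from 15 to 20 days post anthesis (DPA) in cotton fibers was described from 4 of the 8 RNA-sequencing libraries of the series, 1 library of Gossypium barbadense and 1 of Gossypium hirsutum at each of the 2 stages. The libraries were chosen by their stage label, and each 20 DPA library was set against the 15 DPA library of its own species. Both are cultivated tetraploids with an A and a D subgenome, G. barbadense being the extra-long-staple cotton and G. hirsutum the upland cotton. The labels give the tissue as fiber and the molecule as total RNA, and state no cultivar, treatment or genetic change for any group. The last stage is labelled 20 DPA, although the titles of its 2 libraries carry the number 25. How many plants or bolls went into a library is not stated, so the p-values below measure only the spread between these libraries, with the 2 species standing in as the pair of libraries per stage.

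A cotton fiber is a single cell of the seed coat epidermis that elongates inside a thin primary wall and later deposits a thick secondary wall of nearly pure cellulose. During elongation fibers are known for expansins, lipid transfer and fatty acid elongation enzymes, aquaporins and a dynamic cytoskeleton. Secondary wall deposition depends on cellulose synthase complexes of the plasma membrane, with chitinase-like, COBRA-like and fasciclin-like wall proteins, under NAC and MYB transcription factors. The deposited table gives identifiers without gene names, and 0 of them matched the reference table used here, so no gene below could be assigned to these groups. For the same reason the fiber label could not be checked against marker genes. In an identifier such as Gh_A08G0457, A08 is the chromosome, and Sca marks an unplaced scaffold.

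The table lists 59006 genes in RPKM, a read density that corrects for gene length and for the size of the library. The summed RPKM went from 380030 to 324181 in G. barbadense and from 252850 to 298338 in G. hirsutum between 15 and 20 DPA. The sum was thus lower at 20 DPA in the former and higher in the latter, and results are given as deposited and, where it mattered, with each column rescaled to a sum of 300000. The number of reads behind each library, estimated from the values that single reads take and relative to G. barbadense at 5 DPA, was smaller after the step. It was 1.0 before and 0.565 after it in G. barbadense, with 1.01 and 0.585 for G. hirsutum. A single read in the typical low gene used for the estimate was worth 0.20 RPKM in both 15 DPA libraries and 0.35 and 0.34 RPKM in the 20 DPA libraries. A gene of few reads was therefore more easily missed at 20 DPA, and counts of undetected genes move with this difference in depth as well as with the stage. In bulk RNA, fewer cells that express a gene and less RNA per cell cannot be told apart.

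Expression became more concentrated in few genes in both species. The 100 most abundant genes of G. barbadense held 35.1% of all RPKM before the step and 48.0% after it. In G. hirsutum they held 37.9% and 45.5%. The number of genes needed to reach 50% of the summed RPKM went from 363 to 119 in G. barbadense and from 313 to 152 in G. hirsutum. Both species had started from much flatter distributions, with 1100 and 642 genes at 5 DPA. The effective number of genes, the exponential of the Shannon entropy, went from 2544 to 990 and from 1883 to 1197. The very top of the ranking behaved differently in the 2 species. The 10 most abundant genes went from 16.1% to 26.7% in G. barbadense, but held 24.1% and 24.0% in G. hirsutum, where a few genes were already dominant at 15 DPA.

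**Figure D1:**
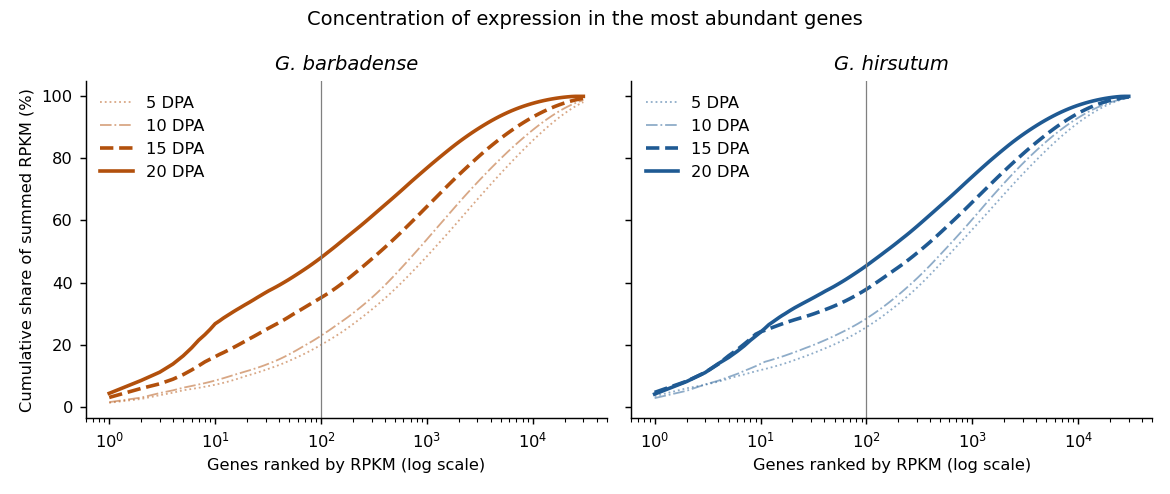
Cumulative share of the summed RPKM (%, vertical axis) against the number of genes ranked by RPKM (log scale), for the 4 stages of each species, with a vertical line at 100 genes. The 20 DPA curve (solid) passes the line at 48.0% in G. barbadense and 45.5% in G. hirsutum, above the 15 DPA curve (dashed) at 35.1% and 37.9%, and in G. hirsutum both curves meet at 10 genes.

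The concentration came with a turnover among the abundant genes. Of the 100 most abundant genes at 15 DPA, 52 were still among the 100 at 20 DPA in G. barbadense and 42 in G. hirsutum. The 48 newcomers of G. barbadense had held 1.54% of the summed RPKM at 15 DPA and held 11.1% at 20 DPA. The 58 newcomers of G. hirsutum went from 1.80% to 15.0%. Between 21 and 28 of the newcomers had ranked below 1000 at 15 DPA, and 4 in G. barbadense and 6 in G. hirsutum had been listed at 0. The 52 retained genes of G. barbadense themselves grew from 26.5% to 37.0%, whereas the 42 retained genes of G. hirsutum held 30.1% and 30.4%. The gain was narrow and the loss was broad. Of all the share gained between the stages, 50% went to 40 genes in G. barbadense and to 36 in G. hirsutum, while 50% of the share lost came from 444 and 235 genes. Outside the 100 most abundant genes the summed RPKM went from 246505 to 168482 in G. barbadense, and from 157130 to 162752 in G. hirsutum.

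The largest mean gains across the species of share belonged to Gh_A06G0811 and Gh_A03G1623. In G. barbadense Gh_A06G0811 went from 2845 to 13954 RPKM, from rank 11 to rank 1. In G. hirsutum it went from 4625 to 8660 RPKM, from rank 7 to rank 3. Both genes were higher in each 20 DPA library than in either 15 DPA library. Gh_A03G1623 went from 2254 to 8546 RPKM in the former species, and from 4000 to 12142 RPKM in the latter, where it became the most abundant gene. Both had also been higher at each stage than at the stage before, Gh_A06G0811 starting from 975 and 370 RPKM at 5 DPA and Gh_A03G1623 from 730 and 309 RPKM. On the log2(RPKM + 1) scale the difference across the step was 1.60 (SE 0.45) for Gh_A06G0811 and 1.76 (SE 0.48) for Gh_A03G1623, and neither passed the test across all genes (limma, Benjamini-Hochberg adjusted p = 0.101 and 0.0953).

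The largest mean losses across the species of share belonged to Gh_D10G1142 and Gh_A09G2303. Gh_D10G1142 had been the top gene of G. hirsutum at 15 DPA and went from 11652 to 5316 RPKM there and from 5182 to 2990 RPKM in G. barbadense. The 2 stages overlapped, since its 20 DPA level in G. hirsutum lay above its 15 DPA level in G. barbadense, and the difference of -0.96 (SE 0.55) did not pass (limma adjusted p = 0.424). Gh_A09G2303 went from 3400 to 349.6 RPKM in G. barbadense and from 7200 to 1871 RPKM in G. hirsutum. On the log2 scale it fell by 2.61 with an SE of 0.41 (limma adjusted p = 0.0034), without overlap between the stages, and missed the threshold in 7 of 16 alternative settings.

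Fewer genes were detected at 20 DPA, in libraries of fewer reads, and the drop was larger in G. barbadense. In G. barbadense 43321 genes were above 0 before the step and 24890 after it, and in G. hirsutum 35244 and 26524. Counting only genes at 1 RPKM or more, there were 19140 and 11646 in the former species, with 14607 and 12319 in the latter. The 20 DPA libraries thus kept 60.9% and 84.3% as many genes at that level as the 15 DPA libraries. With each column rescaled to the same sum the percentages came closer together, at 66.0% and 77.9%. Raising the minimum to 10 RPKM gave 68.6% in G. barbadense and 94.2% in G. hirsutum. With median-of-ratios factors, which set the typical gene equal between libraries, the percentages at 10 RPKM were 94.2% and 116%. Under that scaling G. hirsutum thus had more genes at 10 RPKM or more after the step, while the number above 0 does not depend on scaling but does depend on depth. How much of the drop goes with the smaller libraries was not tested. The 2 species had 20 DPA libraries of nearly the same relative size.

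The genes no longer detected were mostly low, where depth matters most, and far more of them were lost than gained. Of the genes detected at 15 DPA, 47.7% were listed at 0 at 20 DPA in G. barbadense and 35.4% in G. hirsutum. In the opposite direction, 8.97% and 14.1% of the genes detected at 20 DPA were listed at 0 at 15 DPA. Among genes between 1 and 5 RPKM at 15 DPA, 34.5% of those of G. barbadense were listed at 0 at 20 DPA, compared with 14.7% of those of G. hirsutum. At 10 to 100 RPKM, far above the value of a single read, the percentages were 9.69% and 0.74%, and at 100 RPKM or more 5 of 537 genes and 0 of 304. The species difference in percentage points was therefore widest among genes at 1 to 5 RPKM. The highest gene so lost, named after its value was seen, was Gh_A11G2719, at 448 RPKM in G. barbadense at 15 DPA.

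**Figure D2:**
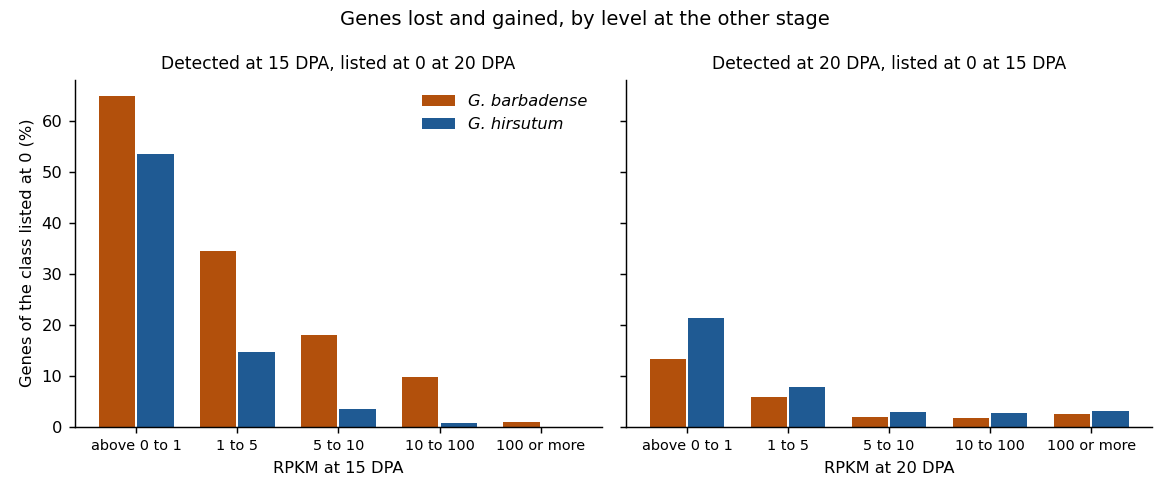
Percentage of genes listed at 0 at 20 DPA by their RPKM at 15 DPA (left) and listed at 0 at 15 DPA by their RPKM at 20 DPA (right), with 1 bar per species and level class. On the left the bars run from 64.9% and 53.5% in the lowest class to 0.93% and 0 in the highest; on the right they stay under 22% in every class.

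At 1 RPKM or more the 2 species were more alike after the step than before it. Of the genes detected in either species at that level, 50.8% were detected in both at 15 DPA and 65.1% at 20 DPA. Above 0, without a minimum, the figures were 62.9% and 60.3%, so the greater likeness did not extend to the lowest genes. Genes at 1 RPKM or more in G. barbadense alone numbered 7775 at 15 DPA and 2198 at 20 DPA. Those in G. hirsutum alone numbered 3242 and 2871, so the change lay mainly on the side of G. barbadense. The lists of the 100 most abundant genes shared 47 genes at 15 DPA and 70 at 20 DPA. Spearman's rank correlation between the species' levels over the 20356 tested genes, a description across genes of 2 libraries each, was 0.46 at 15 DPA and 0.80 at 20 DPA. At 5 and 10 DPA the lists had shared 51 and 59 genes, and the rank correlation had been 0.46 and 0.61. By both measures the species were thus less alike at 15 DPA than at 10 DPA.

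Genes switched on were defined as those at 0.1 RPKM or less in both 15 DPA libraries and at 1 RPKM or more in both 20 DPA libraries. There were 118, or 0.2% of the listed genes, and 114 of them were listed at exactly 0 in both 15 DPA libraries. Of the 118, 44 reached 5 RPKM in both species, 24 reached 20 RPKM and 7 reached 100 RPKM. The 118 genes together held 1.77% of the summed RPKM at 20 DPA in G. barbadense and 4.50% in G. hirsutum, most of it in those 7 genes (1.40% and 3.64%). Their median level was 3.78 RPKM in G. barbadense against 6.34 RPKM in G. hirsutum, and 71 of them stood higher in G. hirsutum. The 20 DPA median of all tested genes was also lower in G. barbadense, at 1.16 RPKM against 1.3 RPKM. Just outside the rule, 86 further genes had 0.5 to 1 RPKM in the lower 20 DPA library, against 50 members at 1 to 2 RPKM.

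Gh_D08G0544 and Gh_A08G0457 were the most abundant of the genes switched on. Gh_D08G0544 was listed at 0 in both 15 DPA libraries. At 20 DPA it reached 1288 RPKM and rank 23 in G. barbadense, with 3732 RPKM and rank 10 for G. hirsutum. Gh_A08G0457 was likewise at 0 at 15 DPA and stood at 1279 and 3688 RPKM at 20 DPA. The levels of this A and D gene were within a few percent of each other in both 20 DPA libraries, so reads shared between near-identical copies could have been split between them. On the log2(RPKM + 1) scale both rose (limma adjusted p = 3.19e-06 for each), and both passed the threshold in all 16 alternative settings. No fold is given, since the 15 DPA values are 0.

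The 15 DPA libraries, in which these genes were silent, were the larger ones. The earlier stages, which the rule did not use, showed that nearly all genes switched on were also low before 15 DPA. Of the 118 genes, 102 were under 1 RPKM in all 4 libraries of 5 and 10 DPA, and 34 were listed at 0 in all 6 libraries before 20 DPA. The other 16 genes reached 1 RPKM or more in an earlier library, the highest value being 32.8 RPKM, in G. hirsutum at 5 DPA. Most of the genes switched on were thus seen at 1 RPKM for the only time at the last stage. The rule asked for silence at 15 DPA, and genes silent there can be low earlier whether or not they come on later. The share among all genes silent at 15 DPA was not counted, so these counts are not read as particular to the list. A single read was worth more RPKM at 20 DPA, at 0.35 and 0.34 RPKM against 0.2 RPKM before in the typical low gene. Members near 1 RPKM can therefore rest on few reads, and the same reads could have stayed under 1 RPKM in the larger earlier libraries. How many members this concerns was not tested. Of the 118, 72 passed the filter on low values and 49 of these rose past the threshold, where 1.18% of all tested genes did. The rule used the same contrast, so nothing is read from that count.

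Genes switched off were defined the other way round, as those at 1 RPKM or more in both 15 DPA libraries and at 0.1 RPKM or less in both 20 DPA libraries. There were 303 of these (0.514% of the listed genes), more than were switched on, but most had been low. Only 15 had reached 5 RPKM in both species at 15 DPA and 0 had reached 20 RPKM. The highest mean was 73.2 RPKM, against 2510 RPKM among the genes switched on. Together the 303 genes had held 0.657% of all RPKM of G. barbadense at 15 DPA, compared with 0.314% for G. hirsutum. These genes stood close to what a few reads are worth, so an absence at 20 DPA also moves with the smaller libraries there. Outside the rule, 687 genes had 0.5 to 1 RPKM in the lower 15 DPA library, against 220 members at 1 to 2 RPKM, so the count depends strongly on the minimum.

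Gh_A07G1106 and Gh_D13G1907 had the highest mean level among the genes switched off. Gh_A07G1106 stood at 139.8 RPKM in G. barbadense but at 6.67 RPKM in G. hirsutum at 15 DPA, and at 0 in both 20 DPA libraries (limma adjusted p = 0.0909). Gh_D13G1907 stood at 93.7 and 2.29 RPKM and at 0 at 20 DPA (adjusted p = 0.0474), and missed the threshold in 12 of 16 alternative settings. Both high means came from G. barbadense, and this held for the list: at 15 DPA 220 of the 303 genes stood higher in G. barbadense, with medians of 2.92 and 1.73 RPKM. At 10 DPA 229 of the 303 genes were at 1 RPKM or more in both species, with a median of 4.68 RPKM in G. barbadense against 2.62 RPKM in G. hirsutum, above those of 15 DPA. The medians of all tested genes showed both patterns too. They were 5.88 and 2.89 RPKM at 10 DPA in the same order of species, and 3.02 and 1.88 RPKM at 15 DPA. Of the 303, 23 fell past the limma threshold, where 0.432% of all tested genes did, and again the rule used the same contrast.

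**Figure D3:**
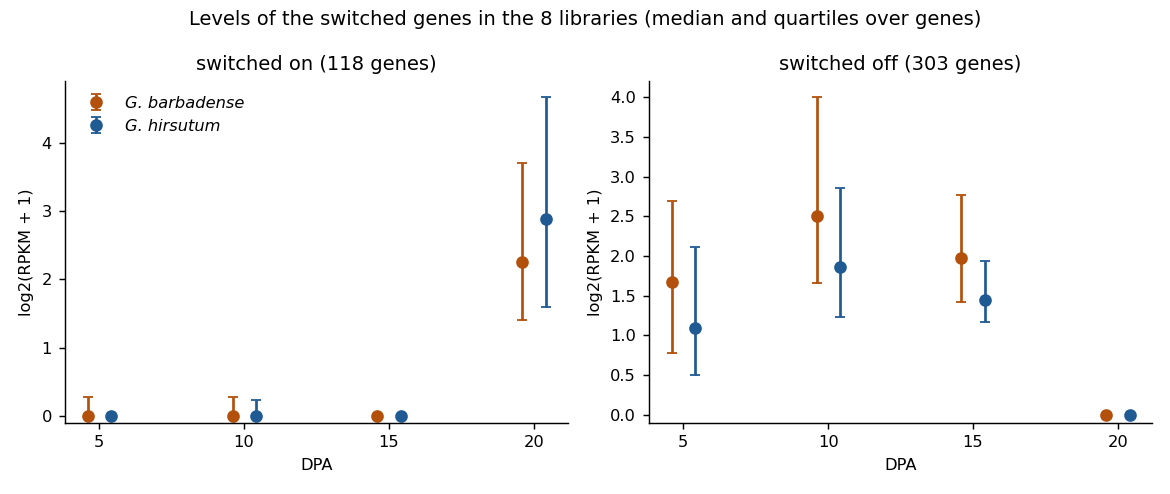
Level of the 118 genes switched on and the 303 genes switched off, as log2(RPKM + 1), in the 8 libraries, by DPA. Points are medians over genes and bars the quartiles. The genes switched on lie at or near 0 until 15 DPA. By median RPKM as deposited, the genes switched off are highest at 10 DPA in both species. Their joint share of all RPKM was highest at 5 DPA in G. hirsutum, at 0.716%, and at 10 DPA in G. barbadense, at 0.969%. The median of all tested genes, not drawn, is also highest at 10 DPA in both.

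Across all genes, 241 rose and 88 fell from 15 to 20 DPA (limma on log2(RPKM + 1) with species and stage as factors over the 8 libraries, Benjamini-Hochberg adjusted p under 0.05). These are 1.18% and 0.432% of the 20356 genes tested, 1.62% in all. The rising genes had a median change of 4.04 and the falling genes of -3.13, against -0.55 for the median tested gene. In each of the 241 and each of the 88 the values of the 2 stages did not overlap. Over all tested genes both 20 DPA values lay above both 15 DPA values in 10.9%, and below them in 36.8%. With the columns rescaled to the same sum, 238 rose and 89 fell (1.17% and 0.437%, 1.61% in all), 234 and 80 of them the same genes. With median-of-ratios factors 335 rose and 33 fell (1.65% and 0.162%, 1.81% in all), and with quantile normalization 284 rose and 27 fell (1.4% and 0.133%, 1.53% in all). The median tested gene then stood at -0.30 and -0.18. The rises thus made up 73.3% of the changed genes as deposited and 72.8%, 91.0% and 91.3% under these scalings, but 43.9% with a pseudocount of 0.1, where 132 rose and 169 fell. Under all 4 scalings 227 genes rose and 21 fell, so most of the rises and few of the falls were called under every scaling.

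Fitted on the 4 libraries of the step alone, limma called 17 rises and 0 falls (1850 genes at an unadjusted p under 0.05), and without the species term 119 rises and 5 falls. The count of falling genes also hung on single libraries. Without G. barbadense 15 DPA or 20 DPA it was 8 or 2, without G. hirsutum 15 DPA it was 265, and without any single one of the other libraries it lay between 35 and 48. The count of rising genes was 116 without G. barbadense 15 DPA, 131 without G. hirsutum 20 DPA, and between 171 and 215 without any other library.

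The rising genes were silent or low before the step and abundant after it. In G. barbadense their median level was 0.53 RPKM before and 47.8 RPKM after the step, with 0.59 and 43.8 RPKM for G. hirsutum. At 15 DPA 117 of the 241 were under 1 RPKM in both species, and at 20 DPA 60 were at 100 RPKM or more in both. Their joint share of all RPKM went from 0.24% to 11.1% in G. barbadense, with 0.42% and 14.9% for G. hirsutum. These shares describe genes chosen on the same libraries. In this list the median change was 4.12 in each species. The change was larger in G. barbadense for 119 genes and in G. hirsutum for 122. The test judged each change against its variation between the species and so favoured genes that rose alike in both. Nothing is therefore read from this balance.

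Only 16 of the 241 rising genes were already at 10 RPKM or more in both 15 DPA libraries. They ranged from 10.3 to 92.9 RPKM at 15 DPA and from 88.4 to 3032 RPKM at 20 DPA. The largest rises among them were those of Gh_D05G3222 and Gh_A04G0412. Gh_D05G3222 went from 34.3 to 1527 RPKM in G. barbadense and from 15.9 to 1257 RPKM in G. hirsutum, which is 44.5-fold and 79.2-fold (log2 change 5.83, SE 0.74, limma adjusted p = 0.000597). Gh_A04G0412 went from 84.7 to 3032 RPKM and from 26.0 to 2336 RPKM, which is 35.8-fold and 89.9-fold (log2 change 5.79, SE 0.74, limma adjusted p = 0.00062). For both genes each 20 DPA library lay far above each library of the earlier stages. At 10 DPA they had been at 38.1 and 79.2 RPKM in G. hirsutum, more than at 15 DPA, and at 11.6 and 24.4 RPKM in G. barbadense, less than at 15 DPA. They missed the threshold in 3 and 4 of 16 alternative settings.

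The falling genes were moderately expressed before the step. In G. barbadense their median level was 44.7 RPKM before and 1.28 RPKM after the step, with 20.9 and 1.60 RPKM for G. hirsutum. In both species the median as deposited had been higher at 10 DPA, at 58.6 and 33.0 RPKM. The median of all tested genes was higher then too, at 5.88 and 2.89 RPKM against 3.02 and 1.88 RPKM at 15 DPA. As a share of all RPKM the falling genes held 3.58% at 10 DPA in G. barbadense, less than at 15 DPA, and 6.22% in G. hirsutum. At 20 DPA 32 of the 88 were under 1 RPKM in both species, and 13 were still at 10 RPKM or more in both. The change was larger in G. barbadense for 62 of the 88 genes, with medians of -3.40 and -2.84. Over all tested genes the change was larger in G. barbadense for 13155 of 20356, with medians of -0.72 and -0.21, so this was not particular to the falling genes. Their joint share of all RPKM went from 3.79% to 0.49% in G. barbadense, with 6.12% and 1.05% for G. hirsutum.

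Among the 13 genes that fell but stayed at 10 RPKM or more, Gh_A10G1331 and Gh_D05G1836 fell most. Gh_A10G1331 went from 715 to 69.3 RPKM in G. barbadense and from 1172 to 64.9 RPKM in G. hirsutum, 10.3-fold and 18.1-fold lower (log2 change -3.75, SE 0.45, limma adjusted p = 0.000416). It had been at 2141 and 2182 RPKM at 10 DPA, and it passed the threshold in 14 of 16 alternative settings. Gh_D05G1836 went from 268 to 15.1 RPKM and from 121 to 20.4 RPKM (log2 change -3.29, SE 0.62, limma adjusted p = 0.0126), and missed the threshold in 7 of 16 settings. In both genes each 20 DPA library lay below each 15 DPA library.

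**Figure D4:**
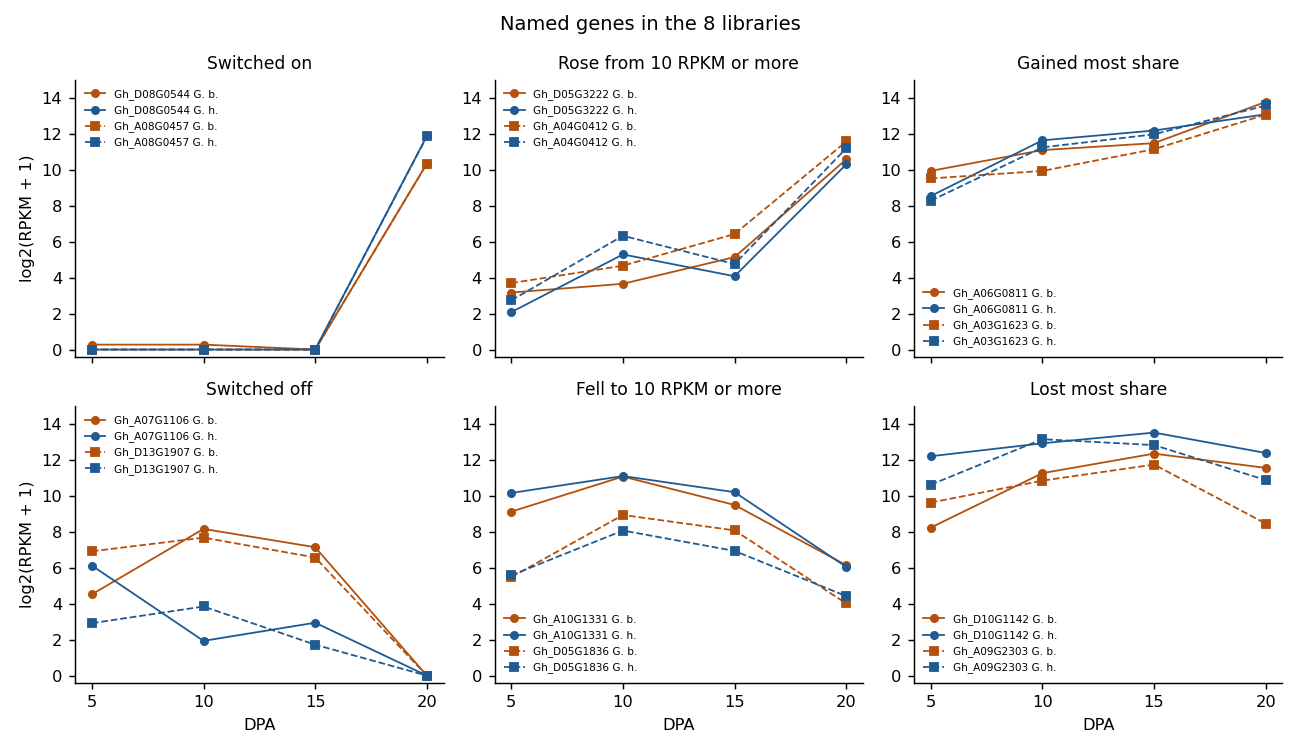
Level of the named genes as log2(RPKM + 1) (vertical axis) at 5, 10, 15 and 20 DPA, with 1 panel per list and 1 line per gene and species. The genes switched on go from 0 to between 1279 and 3732 RPKM in a single step. The genes that gained most share climbed in RPKM from 5 DPA onwards. By share, Gh_A03G1623 was lower at 10 DPA than at 5 DPA in G. barbadense.

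Larger parts of the lists of higher genes than of the lists of lower genes were common to the 2 species. Genes at least 4-fold apart on the log2(RPKM + 1) scale were counted where the higher value reached 5 RPKM. By this count 578 genes (0.98% of those listed) were higher at 20 DPA in G. barbadense, and 629 (1.07%) in G. hirsutum. Of these, 301 (0.51%) were shared, which is 52.1% and 47.9% of the lists. In the other direction 2674 genes (4.53%) were lower at 20 DPA in G. barbadense, and 596 (1.01%) in G. hirsutum. The shared 181 genes (0.307%) made up 6.8% of the first list and 30.4% of the second. With the columns rescaled to the same sum the lower genes numbered 2059 and 888, with 199 shared. These counts compare single libraries, and a gene under 5 RPKM at 15 DPA in a species could not be counted as lower there. The difference between the species in the step was tested with limma, leaving the species difference free at 15 and at 20 DPA. With the 1 residual degree of freedom that remains, 0 of 20356 genes (0%) passed an adjusted p of 0.05, and 1300 had an unadjusted p under 0.05. With 1 term of opposite sign at the 2 stages, which assumes more, 11 genes passed (0.054%), and in all 11 the change was more negative in G. barbadense.

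The list of genes 4-fold lower in G. barbadense only held 2493 genes, of which 2035 were under 5 RPKM in G. hirsutum at 15 DPA and so were bound to be missing from its list. At 10 DPA, a stage the choice did not use, the median of the 2493 genes was 22.4 RPKM in G. barbadense against 6.06 RPKM in G. hirsutum. The lower level of these genes in G. hirsutum was thus also present at 10 DPA, as a value of 1 library per species. The direction was not particular to them. The 10 DPA median of all tested genes was likewise lower for G. hirsutum, at 2.89 RPKM against 5.88 RPKM. Its 10 DPA library also had the smaller summed RPKM, 326872 against 503585. How much of the gap remains with equal column sums was not tested.

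Over the 20356 tested genes the change in G. barbadense and the change in G. hirsutum were weakly related (Spearman's rank correlation 0.23, and 0.20 with equal column sums), as a description across genes of changes that share no library. The median change was -0.72 for G. barbadense and -0.21 for G. hirsutum, or -0.54 and -0.33 with equal column sums. Over the 3174 genes at 10 RPKM or more in both libraries of either stage the rank correlation was 0.66. That subset was chosen on the same libraries.

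**Figure D5:**
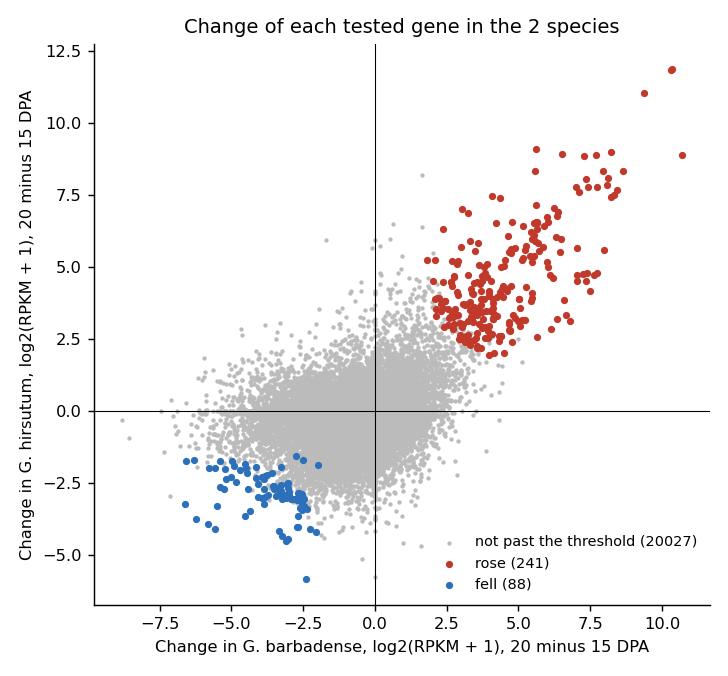
Change of each of the 20356 tested genes from 15 to 20 DPA on the log2(RPKM + 1) scale in G. barbadense (horizontal) and G. hirsutum (vertical). The 241 genes that rose reach beyond 10 in both species, while the grey cloud of genes not past the threshold extends to the left, towards lower levels in G. barbadense alone.

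The rising genes lay on both subgenomes in about the proportions of the tested genes. The A chromosomes held 46.9% of the rising genes and 47.0% of the tested genes, and the D chromosomes 49.4% and 48.9%. Of the falling genes the A chromosomes held 37.5%, the D chromosomes 51.1% and unplaced scaffolds 11.4%, where 4.1% of the tested genes lay. By chromosome, the share of tested genes that rose ran from 0.27% on D07 to 1.92% on D02. Of the 118 genes switched on, the A chromosomes held 50, the D chromosomes 58 and scaffolds 10. Of these genes, 34 on A or D chromosomes reached 20 RPKM in any of the 8 libraries. Among them 8 (23.5%) had a gene of the other subgenome within 0.25 on the log2 scale in all 8 libraries. The same held for 369 of 5082 tested genes (7.3%) and 18 of 182 rising genes (9.9%). Values near 0 before 20 DPA make such agreement easy for the genes switched on. The pair Gh_D08G0544 and Gh_A08G0457 was not among the 8, with 0.21 and 0 RPKM in G. barbadense at 5 and 10 DPA. Partners were matched by level alone and need not be copies of one gene. Whether reads of near-identical copies were told apart is not stated.

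A run of 4 consecutive identifiers on chromosome A03, Gh_A03G1546 to Gh_A03G1549, was the only case of consecutive identifiers among the genes switched on, and was picked out after the values were seen. All 4 were listed at 0 in both 15 DPA libraries. At 20 DPA their levels were 47.3, 26.0, 49.5 and 45.7 RPKM in G. barbadense. The levels for G. hirsutum were 94.7, 48.7, 92.9 and 92.2 RPKM. Gh_A03G1547 was thus at about the same fraction of the other three in both species, and every member was higher in G. hirsutum. Before 15 DPA no value exceeded 0.25 RPKM. Consecutive identifiers were read as neighbours from the numbering alone, as no coordinates were used, and copies of a gene in a row can share reads.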

How the data were processed

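Fiber RNA was sequenced as 8 Illumina libraries, of which the 4 of 15 and 20 DPA carry the step described here. The authors deposited RPKM values with 2 decimals; cutadapt, Bowtie2 and edgeR are named, without roles or versions, by the submitters' processing notes. The build, the annotation and the counting of multiply mapped reads were not given in the sources used. Relative depth was read from 2237 genes whose lowest value was shared by several other libraries and taken as 1 read (median 0.2 RPKM). Values under 1 RPKM in such genes rest on few reads, and in short genes values above 1 RPKM can as well. Absolute depth is unknown.

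Changes were tested with limma 3.58.1 in R 4.3.3 (lmFit, eBayes with a trend) on log2(RPKM + 1), two-sided, with species and stage as factors over all 8 libraries (3 residual degrees of freedom), for genes averaging 1 RPKM or more. This scale understates changes of low genes. The species term pairs the 2 libraries of a species. Zero values give no fold. The test and the depth estimate were tested on simulated data. Other values were computed in Python 3.11.15 (scipy 1.17.1, numpy 2.4.6, pandas 2.3.3).

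Up to 2 identifiers per direction were named in each list (switched; largest change from or to at least 10 RPKM; largest change of share; opposite changes of at least 4-fold). The lists of wall and tissue markers could not be matched. The step and all lists were chosen with earlier results of these data known. Alternatives were other scalings (column sum 300000, median of ratios over 15529 genes, quantile), a pseudocount of 0.1, other filters, the 4 libraries alone, no species term, and each library left out. A test of the difference between the species was added after seeing the data.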

Additional observations from a re-analysis of the deposited data

Results flagged for a closer look

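Opposite directions in the 2 species drew attention in 4 results, of which the first was not tested. The summed RPKM changed by -14.7% in G. barbadense and by 18.0% in G. hirsutum. Gh_D06G0139 went from 8.50 to 68.6 RPKM in G. barbadense and from 84.6 to 17.6 RPKM in G. hirsutum, a change of 2.87 and -2.20 on the log2(RPKM + 1) scale. It was the only gene at least 4-fold higher in the former and 4-fold lower in the latter. The reverse was seen for 13 genes, of which Gh_D01G2324 and Gh_Sca088912G01 differed most. Gh_D01G2324 went from 126.4 to 4.02 RPKM in G. barbadense and from 0.75 to 11.7 RPKM in G. hirsutum, a change of -4.67 and 2.86. Gh_Sca088912G01 went from 23.8 RPKM to 0 and from 0 to 5.26 RPKM, a change of -4.63 and 2.65. For each of the 3 genes the levels of the 2 species were closer together at 20 DPA than at 15 DPA. The difference between the species was 5.07 (SE 1.60), -7.52 (SE 1.35) and -7.28 (SE 1.23) in the same order, and did not pass in limma with free species differences at 15 and 20 DPA (adjusted p = 0.769 for each). With 1 term of opposite sign Gh_D01G2324 and Gh_Sca088912G01 passed (limma adjusted p = 0.0243 for each) and Gh_D06G0139 did not (adjusted p = 0.208). Over the species none of the 3 genes passed the limma test (adjusted p from 0.695 to 0.887).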

How the results depend on the processing

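The 329 changed genes became 74 without a filter on low values and 17 with the 4 libraries of the step alone. Without the replicate block by species, which pairs the libraries in the main model, they were 124. The 241 rises became 73, 17 and 119 in these settings, 132 with a pseudocount of 0.1 and 149 at a mean of 5 RPKM or more. The 88 falls became 1, 0 and 5 in the first 3 settings, 169 with a pseudocount of 0.1, 33 under median of ratios and 27 with quantile normalization. The 4 libraries alone gave 1850 genes in limma at an unadjusted p under 0.05, 1158 of them lower at 20 DPA. The causes of these shifts were not tested. With 1 library left out the counts ran from 124 to 436 in all, 116 to 215 for rises and 2 to 265 for falls, and the total was 124, 187 and 179 without G. barbadense 15 DPA, its 20 DPA library and G. hirsutum 20 DPA, the lone library of a stage being assumed to vary like the others.

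Genes switched on numbered 287 with 0.5 RPKM as the silent level, 44 with 5 RPKM as the on level, 513 in G. barbadense alone and 738 in G. hirsutum alone, and genes switched off 765, 15, 5008 and 1447. The number of detected genes at 20 DPA was 57.5% to 75.01% of that at 15 DPA in G. barbadense under 5 alternatives and 75.3% to 96.9% in G. hirsutum. Median of ratios with a minimum of 5 or 10 RPKM gave 107% and 116% in G. hirsutum.

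The share of the 100 most abundant genes was 1.37 times that of 15 DPA in G. barbadense and 1.20 times in G. hirsutum. For 10 genes the ratios were 1.66 and 0.995, a reversal in G. hirsutum, and for 1000 genes 1.19 in G. barbadense. By genes holding 50% they were 3.05 and 2.06, and by effective number 2.57 and 1.57. Without the 20 genes of highest mean the ratio in G. hirsutum was 1.62. The rank correlation (Spearman) between the species' changes across genes was 0.23, and 0.66 in a subset added after seeing the data, genes at 10 RPKM or more.

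Without G. barbadense 15 or 20 DPA, the change reversed to -0.78 and -1.93 for Gh_D06G0139 (highest 2.60 without another library), to 1.85 and 1.36 for Gh_D01G2324 (lowest -3.66), and to 0.91 and 1.96 for Gh_Sca088912G01 (lowest -3.95). No other named gene reversed. Genes whose step differed between the species went from 0 to 11 with 1 term of opposite sign. The 20 DPA libraries held fewer reads, and under 1 RPKM a value of 0 shows only that no read was counted, not that the gene was silent.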
